A study of Mus musculus with 45 samples.

Results

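A set of 10 genes of tumour necrosis factor (TNF) and death receptor signalling were followed across mouse ileum: the ligand genes Tnf and Tnfsf10, the receptor genes Tnfrsf1a, Tnfrsf1b, Fas and Tnfrsf10b, and the adaptor and ligase genes Tradd, Traf2, Birc2 and Birc3. They were chosen by symbol, with earlier results of these data known. Each was measured by 1 probe, so that they made up 10 of the 19494 genes on the arrays. Total RNA of whole ileum from mice of 11 weeks was hybridised to 45 arrays, 1 mouse per array, with 5 mice in each of 9 genotypes. Mice carrying floxed alleles of Fadd (Fadd fl/fl) or of Casp8 (Casp8 fl/fl) were the controls. FADD IEC-KO and CASP8 IEC-KO mice lacked the respective gene in intestinal epithelial cells, the cells that IEC stands for, so other cells of the ileum kept it. Neither the promoter that drove the deletion nor the sex of the mice is stated in the labels. Further loss was added to these: Mlkl in the whole animal (FADD IEC-KO Mlkl-/- and CASP8 IEC-KO Mlkl-/-), Mlkl together with both epithelial deletions (triple mutants, FADD IEC-KO CASP8 IEC-KO Mlkl-/-), Zbp1 in the whole animal (FADD IEC-KO Zbp1-/-), or epithelial Ripk3 (FADD IEC-KO RIPK3 IEC-KO). The triple mutants were grouped by their titles, because their genotype field names CASP8 IEC-KO Mlkl-/- alone.

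TNF, the product of Tnf, binds TNF receptor 1 (Tnfrsf1a), which recruits the adaptor TRADD, then TRAF2 and the ubiquitin ligases cIAP1 (Birc2) and cIAP2 (Birc3), and this complex activates NF-kB and holds back cell death. When it falters, FADD and caspase-8 drive apoptosis, and where caspase-8 is lacking RIPK3 and MLKL can drive necroptosis, a lytic death that ZBP1 can also start. Fas and the TRAIL receptor Tnfrsf10b, whose ligand TRAIL is encoded by Tnfsf10, recruit FADD and caspase-8 directly. In the gut, this pathway is known for its part in the death of epithelial cells and in inflammatory bowel disease.

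The regulatory sequence just upstream of 3 of these genes is shown, because Tnf had the widest range of group means and because Tnfsf10 and Birc3 were both highest in Mlkl-/- groups. The windows are the 250 bases before the transcription start in RefSeq (build GRCm38.p6), written 5′ to 3′ on the strand of the gene, with capitals marking matches to a short motif. The Tnf window lies at chr17:35202008-35202257 on the minus strand, and its capitals mark a TATA box, TATAAA. The Tnfsf10 window lies at chr3:27316827-27317076 on the plus strand and the Birc3 window at chr9:7873171-7873420 on the minus strand. Their capitals mark AAA, any 2 bases and then GAAAC, a short form of an interferon-response motif, read on both strands.
Tnf: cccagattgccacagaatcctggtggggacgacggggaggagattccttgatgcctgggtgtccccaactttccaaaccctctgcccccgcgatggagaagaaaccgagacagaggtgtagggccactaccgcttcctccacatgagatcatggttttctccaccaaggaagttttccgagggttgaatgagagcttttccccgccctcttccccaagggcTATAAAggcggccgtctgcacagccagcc
Tnfsf10: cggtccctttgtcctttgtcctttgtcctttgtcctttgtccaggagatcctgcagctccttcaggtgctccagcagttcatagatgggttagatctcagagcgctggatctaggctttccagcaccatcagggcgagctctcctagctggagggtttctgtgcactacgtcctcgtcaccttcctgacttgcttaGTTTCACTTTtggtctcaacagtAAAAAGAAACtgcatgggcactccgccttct
Birc3: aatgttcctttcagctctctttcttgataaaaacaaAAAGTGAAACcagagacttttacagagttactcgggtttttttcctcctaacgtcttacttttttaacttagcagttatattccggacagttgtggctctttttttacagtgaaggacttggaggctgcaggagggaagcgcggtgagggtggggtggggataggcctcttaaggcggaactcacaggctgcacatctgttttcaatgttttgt

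In the Tnf window TATAAA occupied bases 29 to 24 before the start. Tnfsf10 held the interferon-response form at bases 54 to 45, on the other strand, and again at bases 31 to 22. Birc3 held it at bases 214 to 205. That form was found in 1.92% of the 32851 RefSeq windows of the same length, TATAAA in 12.4%, and the consensus for NF-kB in 7.25%. Of the 8 members with an entry, Tnfrsf1b was the other one with it, at bases 11 to 2 on the other strand, and its bases 10 to 1, which overlap that match, fit GAAA, any 2 bases and GAAA, which 2.98% of all windows held. The NF-kB consensus was not among the letters of any window of these 8 members. Only matches to that consensus within the windows were sought, so sites of another form or further away were not looked for. The interferon-response form was chosen after the sequences were read, and these matches are descriptions of letters. By position, Tnf sits between Ltb and Lta on chromosome 17, and Birc2 and Birc3 are neighbours on chromosome 9.

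The deleted genes were read first, in log2 intensity, the scale of all values here. Fadd lay between 5.34 and 6.53 in 24 of the 25 mice labelled FADD IEC-KO and between 7.18 and 7.80 in the 20 others. FADD IEC-KO mouse 1, at 7.32, was the exception, and its value lay below every Fadd fl/fl mouse but within the range of the others. Casp8 lay between 9.46 and 10.57 in 14 of 15 mice labelled CASP8 IEC-KO, against 10.82 to 11.51 elsewhere, and CASP8 IEC-KO mouse 1 read 10.89. Mlkl averaged 8.43 in CASP8 IEC-KO Mlkl-/- and 8.62 in Casp8 fl/fl (log2 difference -0.19 ± 0.20 (SE), limma adjusted p = 0.769), so this probe did not separate those mice from their control. The same probe was lower in the other Mlkl-/- groups, with log2 differences of -1.10 ± 0.20 in FADD IEC-KO Mlkl-/- against FADD IEC-KO (adjusted p = 5.17e-04) and -1.50 ± 0.17 in the triple mutants against both floxed groups (adjusted p = 1.37e-07). Against its floxed control, Fadd fl/fl, the difference in FADD IEC-KO Mlkl-/- was smaller (-0.61 ± 0.20, adjusted p = 0.0360), and the mice overlapped. Against CASP8 IEC-KO, CASP8 IEC-KO Mlkl-/- was lower by a difference that was not called (-0.56 ± 0.20, adjusted p = 0.132). The triple mutants also read below CASP8 IEC-KO Mlkl-/- (-1.29 ± 0.20, adjusted p = 1.54e-04). Directions for CASP8 IEC-KO Mlkl-/- below therefore rest on the label of those 5 mice. Zbp1 in FADD IEC-KO Zbp1-/- differed from FADD IEC-KO by -0.93 ± 0.29, which was not called (adjusted p = 0.0653), and the mice overlapped. Against Fadd fl/fl, Zbp1 was called as lower, also with overlap (-1.11 ± 0.29, adjusted p = 0.0091). Effects of Zbp1 loss relative to FADD IEC-KO thus also rest on the label. Ripk3 fell in FADD IEC-KO RIPK3 IEC-KO relative to FADD IEC-KO (-1.25 ± 0.16, adjusted p = 3.53e-05), with no overlap. The markers of intestinal epithelium were high throughout, with a list mean between 11.68 and 11.79 in every group. Tissue here is bulk ileum, in which fewer cells of a type and less RNA per cell cannot be told apart.

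Across all 9 groups, 9 of the 10 members differed by limma's moderated F test (adjusted p under 0.05, Benjamini-Hochberg over all 19494 genes), where 25.4% of all genes did. Birc2 was the exception (adjusted p = 0.913). Adjusted p was 1.84e-07 for Tnf and between 1.39e-05 and 0.0165 for the other 8. When each member's group means were put in order, mice of neighbouring groups overlapped in 8 of 8 pairs for every member except Tradd, with 7 of 8. Neighbours in such an order are the closest groups, and the share over all genes was not computed. The count is therefore a description, and groups further apart in the order could still lie clear of each other. A gene is called below where limma's adjusted p over all genes was under 0.05 in that comparison, and differences are given with their standard error.

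Loss of epithelial FADD alone raised 4 members and lowered none: Tnf, Tnfrsf10b, Traf2 and Tradd. Of all genes, 3.73% were called and 1.81% rose. The same comparison for caspase-8 raised 1 member, Tnfrsf10b (4.17% of all genes called, 2.89% up). Adding Mlkl loss raised 2 members in FADD IEC-KO mice, Tnfsf10 and Birc3 (1.61% called, 0.857% up). In CASP8 IEC-KO mice it raised 3, Tnfsf10, Birc3 and Fas, and lowered 2, Tnfrsf10b and Tradd (2.78% called, 1.59% up and 1.19% down). Adding Zbp1 loss to FADD IEC-KO called no member with limma, although 2 had an unadjusted p under 0.05 (3.32% of all genes called). Adding epithelial Ripk3 loss lowered 2, Tnf and Tnfrsf1b (1.55% called, 0.723% down). These comparisons share their FADD IEC-KO or CASP8 IEC-KO mice, so their values are given side by side and are not independent of each other. The members' median log2 difference was 0.10 for FADD loss, 0.00 for caspase-8 loss, 0.11 and 0.20 for Mlkl loss without FADD and without caspase-8, -0.14 for Zbp1 loss and -0.12 for Ripk3 loss, where the median over all genes was between -0.02 and 0.01.

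**Figure D1:**
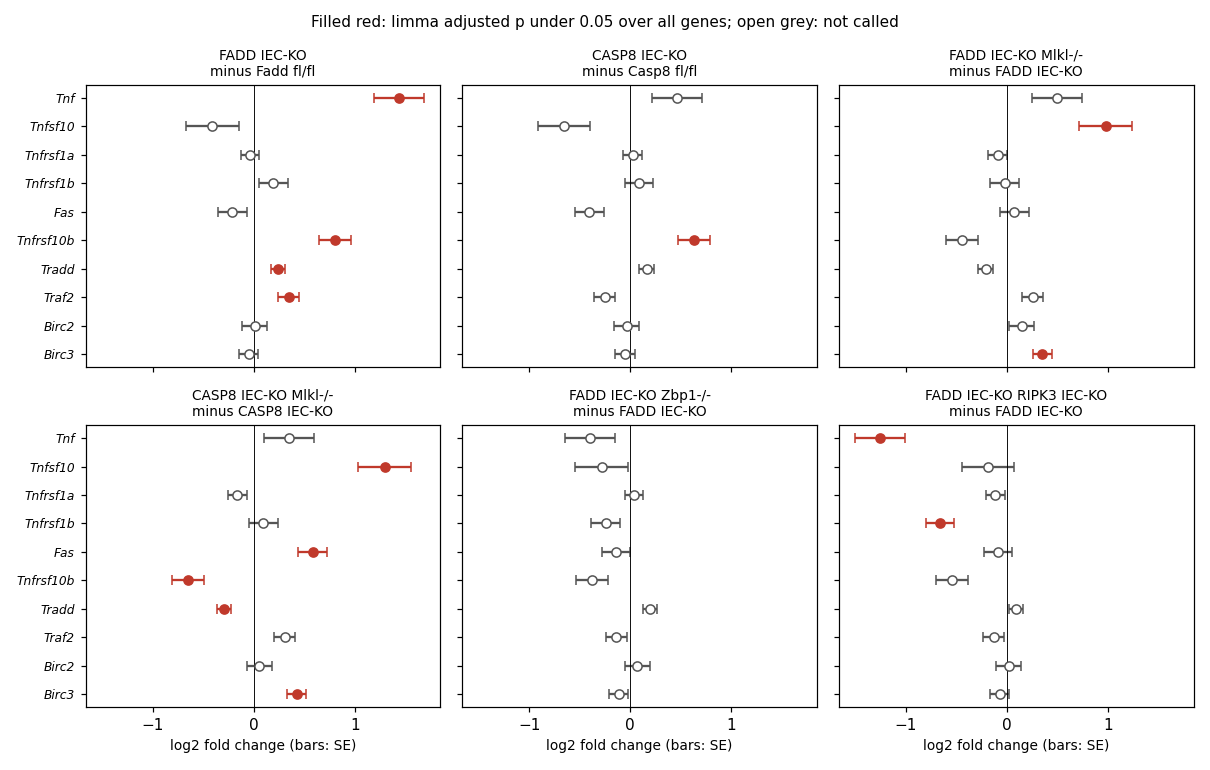
Log2 fold change (x axis) of the 10 members (y axis) in 6 comparisons; points are limma estimates from 5 mice per group, bars the standard error, filled red where called. Tnf, Tnfrsf10b, Traf2 and Tradd are called for FADD loss and Tnfrsf10b for caspase-8 loss. Tnfsf10 and Birc3 are called for Mlkl loss in both backgrounds. Without caspase-8, Mlkl loss also has calls for Fas and, with negative values, for Tnfrsf10b and Tradd. Tnf and Tnfrsf1b, with negative values, are called for Ripk3 loss, and no member is called for Zbp1 loss.

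Tnf encodes the ligand at the head of the pathway. Its probe was dim, with a mean of 5.78 over all mice against a median of 6.49 over all genes, below the level kept by the filter on dim genes, so its fold changes are those of a probe below the median signal. In Fadd fl/fl mice 1 to 5 its log2 intensity was 4.57, 5.28, 4.80, 5.35 and 4.41, and in FADD IEC-KO it was 6.42, 6.01, 7.31, 5.52 and 6.35. All 5 FADD IEC-KO mice lay above all 5 controls, mouse 3 highest and mouse 4 closest to the controls. Tnf rose by 1.44 ± 0.25 on the log2 scale (2.71-fold, adjusted p = 4.12e-04). The titles carry mouse numbers either under 100 or from 200 up, which the labels do not explain, and the difference was 1.39 within the lower range (4 against 2 mice) and 1.49 within the upper (1 against 3).

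FADD IEC-KO Mlkl-/- mice had the highest Tnf, at 6.96, 6.56, 6.72, 6.95 and 6.90. They were close together, and all lay above every Fadd fl/fl mouse. The rise over that control was 1.93 ± 0.25 (3.82-fold, adjusted p = 1.55e-06), and the difference from FADD IEC-KO was 0.49 ± 0.25 and not called. FADD IEC-KO Zbp1-/- mice read 5.63, 5.92, 6.61, 5.17 and 6.30, spread between the control and FADD IEC-KO levels, with mouse 4 inside the control range. Their Tnf rose over Fadd fl/fl by 1.04 ± 0.25 (adjusted p = 0.0042), and the difference from FADD IEC-KO, -0.40 ± 0.25, was not called.

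FADD IEC-KO RIPK3 IEC-KO mice read 4.99, 5.39, 5.0, 4.76 and 5.20 for Tnf. All 5 lay below all 5 FADD IEC-KO mice, and 4 of 5 lay inside the Fadd fl/fl range. Tnf fell by 1.25 ± 0.25 relative to FADD IEC-KO (adjusted p = 0.0064), and the difference from Fadd fl/fl was 0.19 ± 0.25 and not called. The fall from FADD IEC-KO was no longer called without FADD IEC-KO mouse 3 (log2 difference -1.01, adjusted p = 0.0542) or when those groups were fitted alone (adjusted p = 0.0881, with adjusted p between 8.80e-04 and 0.0881 over its alternatives). Against FADD IEC-KO Mlkl-/-, Tnf was lower by 1.75 ± 0.25 in FADD IEC-KO RIPK3 IEC-KO (log2 difference -1.75, adjusted p = 1.35e-05), and the groups did not overlap. FADD IEC-KO Zbp1-/- was also below FADD IEC-KO Mlkl-/- (-0.89 ± 0.25, adjusted p = 0.0307). That call ended with those groups fitted alone (adjusted p = 0.0586) and without FADD IEC-KO Mlkl-/- mouse 1, 4 or 5 or Zbp1-/- mouse 1 or 4, and adjusted p ran from 0.0094 to 0.134 over its alternatives, highest without Zbp1-/- mouse 4 (log2 difference -0.70). FADD IEC-KO RIPK3 IEC-KO against FADD IEC-KO Zbp1-/- gave -0.86, which was not called (adjusted p = 0.0592), though it was called without Zbp1-/- mouse 4 (adjusted p = 0.0154) or mouse 1 (0.0479) or RIPK3 IEC-KO mouse 2 (0.0421).

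In the caspase-8 series Tnf was not called against its floxed control. Casp8 fl/fl mice read 4.80, 5.20, 4.81, 5.21 and 5.56, and CASP8 IEC-KO mice 5.13, 5.81, 5.68, 5.42 and 5.84. The groups overlapped, and the log2 difference of 0.46 ± 0.25 was not called (adjusted p = 0.318). CASP8 IEC-KO Mlkl-/- mice read 5.65, 5.78, 5.95, 5.68 and 6.58, all above the Casp8 fl/fl mice, with a difference of 0.81 ± 0.25 that was not called (adjusted p = 0.110). With both floxed groups as the control this difference was 0.93 and called (adjusted p = 0.0119), and with array weights it was 0.83 (adjusted p = 0.0360). The FADD and caspase-8 effects on Tnf differed by 0.98 ± 0.35, and that interaction was not called (adjusted p = 0.566, 0 of 10 members and 0% of all genes called, 2 members at an unadjusted p under 0.05). The deleted genes were not called in it either (Fadd -1.10 ± 0.24, adjusted p = 0.0945, and Casp8 0.99 ± 0.19, adjusted p = 0.0637). The interaction therefore cannot show that both deletions acted alike on Tnf or on another member. Triple mutants read 6.11, 6.46, 6.55, 5.75 and 6.94, all above both floxed groups, a rise of 1.37 ± 0.22 (2.58-fold, adjusted p = 8.99e-05).

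Marker lists of other cell types differed between some of these groups. In FADD IEC-KO the neutrophil list averaged 5.02 (4.70 to 5.49 by mouse), against 4.60 (4.53 to 4.68) in Fadd fl/fl, and 1 of its 7 measured genes rose, S100a8, a calprotectin subunit (1.45 ± 0.28, adjusted p = 0.0013), where 1.81% of all genes rose. FADD IEC-KO Mlkl-/- mice, where Tnf was highest, had a neutrophil list mean of 4.45 to 4.65 by mouse, which overlapped the control range. Of 9 macrophage markers measured, 2 fell in FADD IEC-KO and 0 were called by limma in FADD IEC-KO Mlkl-/- (3 at an unadjusted p under 0.05). The neutrophil list lay at 4.52 to 4.67 with epithelial Ripk3 also lost, and 2 of 7 genes fell relative to FADD IEC-KO, where 0.723% of all genes fell. Of 6 fibroblast markers 1 fell relative to Fadd fl/fl with FADD loss alone, 5 with added Mlkl loss, 5 with added Zbp1 loss and 3 with added epithelial Ripk3 loss, the group whose Tnf was not called. Of 6 smooth muscle markers 1, 4, 0 and 0 fell in the same order, by limma. The share of all genes that fell was 1.92%, 6.35%, 7.08% and 0.662% in that order. What part these cells had in the Tnf values was not tested.

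Tnfsf10 encodes TRAIL, the ligand of Tnfrsf10b. FADD IEC-KO mice read 9.37, 8.43, 8.25, 7.70 and 8.44, and FADD IEC-KO Mlkl-/- mice 9.55, 9.45, 9.26, 9.65 and 9.18. FADD IEC-KO mouse 1, in which Fadd was near the control level, was the only mouse of its group inside the Mlkl-/- range. Tnfsf10 rose with Mlkl loss by 0.98 ± 0.26 (1.97-fold, adjusted p = 0.0380). The leave-out of a single mouse kept this call only for FADD IEC-KO mouse 1 and FADD IEC-KO Mlkl-/- mouse 5. It was also lost with those groups fitted alone (0.0947). Adjusted p ran from 0.0013 to 0.155 over its alternatives, highest without FADD IEC-KO mouse 4 (0.80). In CASP8 IEC-KO the values were 9.08, 6.76, 8.05, 8.14 and 8.42, and in CASP8 IEC-KO Mlkl-/- 9.59, 9.18, 9.27, 9.33 and 9.57. Here no mice overlapped, mouse 2 of CASP8 IEC-KO was the lowest of all 45, and the rise was 1.30 ± 0.26 (2.45-fold, adjusted p = 0.0015; from 1.45e-05 to 0.0572 over its alternatives, and not called with those groups fitted alone).

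Neither single deletion called Tnfsf10 against its floxed control, with log2 differences of -0.41 ± 0.26 for FADD (adjusted p = 0.426) and -0.65 ± 0.26 for caspase-8 (adjusted p = 0.146). Without CASP8 IEC-KO mouse 1, whose Casp8 was nearest the control level, the caspase-8 difference was -0.90 and called (adjusted p = 0.0248). Triple mutants read 9.42, 9.09, 9.72, 9.10 and 9.32, in the range of the other Mlkl-/- groups. Floxed means lay between the single deletions and these groups, at 8.85 in Fadd fl/fl (8.43 to 9.31) and 8.75 in Casp8 fl/fl (8.20 to 9.07). Relative to floxed controls, limma called Tnfsf10 in no Mlkl-/- group, so the rises given above are over the single deletions. FADD IEC-KO Mlkl-/- exceeded Fadd fl/fl by 0.57, which was called with those groups fitted alone (adjusted p = 0.0368). FADD IEC-KO Zbp1-/- (7.65 to 8.67) and FADD IEC-KO RIPK3 IEC-KO (7.75 to 8.50) both lay wholly below FADD IEC-KO Mlkl-/-. Their log2 differences from it were -1.26 ± 0.26 (adjusted p = 0.0029) and -1.17 ± 0.26 (adjusted p = 0.0046), and every alternative run kept both.

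**Figure D2:**
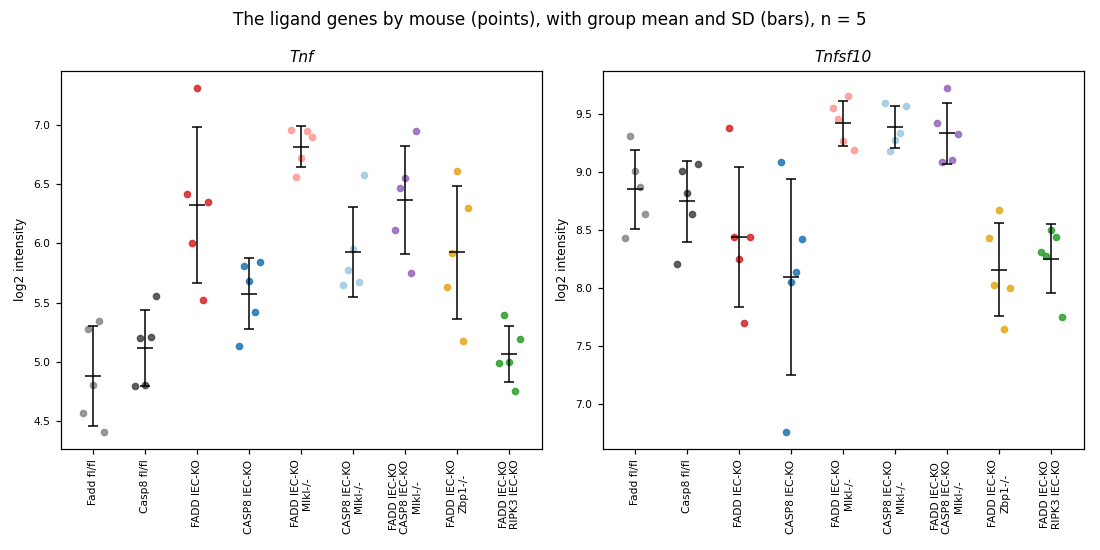
Log2 intensity (y axis) of Tnf and Tnfsf10 in each mouse (points) of the 9 genotypes (x axis), with the group mean and SD of 5 mice. Tnf is lowest in the floxed groups and FADD IEC-KO RIPK3 IEC-KO, and Tnfsf10 is 9.09 or higher in every Mlkl-/- mouse.

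Among the receptor genes, Tnfrsf10b, the mouse TRAIL receptor, was the one called for both epithelial deletions. It read 6.07, 6.28, 6.30, 6.10 and 6.59 in Fadd fl/fl and 6.91, 7.02, 7.40, 6.84 and 7.19 in FADD IEC-KO. The groups did not overlap, and Tnfrsf10b rose by 0.80 ± 0.16 (1.75-fold, adjusted p = 0.0022), a call that all 19 alternatives kept. In Casp8 fl/fl it read 6.31, 5.90, 6.58, 6.53 and 6.33, and in CASP8 IEC-KO 6.21, 7.32, 7.17, 6.97 and 7.12. In 4 of the 5 CASP8 IEC-KO mice it exceeded every control, and mouse 1, with the least reduced Casp8, lay within the control range. The rise was 0.63 ± 0.16 (1.55-fold, adjusted p = 0.0180). It was lost without Casp8 fl/fl mouse 2 (adjusted p = 0.0841), CASP8 IEC-KO mouse 2 (0.0995) or mouse 3 (0.0561), and with those groups fitted alone (0.168), in a range from 3.88e-04 to 0.168 over its alternatives. The effects of FADD and caspase-8 loss on Tnfrsf10b differed by 0.18, which was not called (adjusted p = 0.952), in an interaction that did not call Fadd or Casp8 either.

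With Mlkl also lost, Tnfrsf10b read 6.35, 6.39, 6.40, 6.05 and 6.34 in CASP8 IEC-KO Mlkl-/-. These overlapped CASP8 IEC-KO through its mouse 1 alone, and Tnfrsf10b fell by 0.65 ± 0.16 on the log2 scale (adjusted p = 0.0127). The fall was not called without CASP8 IEC-KO mouse 2 (adjusted p = 0.0683), mouse 3 (0.0502) or CASP8 IEC-KO Mlkl-/- mouse 4 (0.0545), nor with those groups fitted alone (0.0929), in a range from 1.73e-04 to 0.0929 over its alternatives. In FADD IEC-KO Mlkl-/- it read 6.27, 6.48, 6.59, 6.84 and 6.97, overlapping FADD IEC-KO, with a log2 difference of -0.44 that was not called (adjusted p = 0.203). FADD IEC-KO RIPK3 IEC-KO mice read 6.51, 6.31, 6.58, 6.50 and 6.75, all below FADD IEC-KO, and that difference, -0.54, was not called either (adjusted p = 0.068). It was called at -0.60 without FADD IEC-KO mouse 4 (adjusted p = 0.0376) and with the filter on dim genes, array weights or both mice near control level left out.

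Tnfrsf1b, the receptor TNFR2 found mainly on immune and endothelial cells, read 7.43, 7.42, 7.64, 6.87 and 7.44 in FADD IEC-KO. FADD IEC-KO RIPK3 IEC-KO mice read 6.84, 6.52, 6.63, 6.98 and 6.53. Only FADD IEC-KO mouse 4 reached into the lower group. Tnfrsf1b fell by 0.66 ± 0.14 (adjusted p = 0.0133), a call lost without FADD IEC-KO mouse 3 (adjusted p = 0.0672) or with those groups fitted alone (0.0979; from 0.0012 to 0.0979 over its alternatives). Relative to FADD IEC-KO Mlkl-/- (7.21 to 7.53) FADD IEC-KO RIPK3 IEC-KO was lower with no overlap (-0.64 ± 0.14, adjusted p = 0.0043). Tnfrsf1b was not called in any comparison with a floxed control.

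Tnfrsf1a, the receptor TNFR1 made by most cells, was called once in 17 comparisons. It read 10.39, 10.30, 10.25, 10.29 and 10.28 in the triple mutants and 9.79, 10.00, 9.58, 9.97 and 10.04 in CASP8 IEC-KO Mlkl-/-. These groups did not overlap, and the difference was 0.43 ± 0.09 (adjusted p = 0.0061, where 3.10% of all genes were called and 2.04% were higher, with this 1 member). With the range of title numbers as a covariate it was 0.35 (adjusted p = 0.0717; from 6.39e-04 to 0.0717 over its alternatives), and all triple mutants had numbers from 200 up. No single deletion called Tnfrsf1a: the log2 difference was -0.04 for FADD loss and 0.03 for caspase-8 loss.

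Fas, the receptor of Fas ligand, read 6.76, 5.99, 6.45, 6.43 and 6.65 in CASP8 IEC-KO and 7.22, 7.11, 7.18, 6.97 and 6.73 in CASP8 IEC-KO Mlkl-/-. CASP8 IEC-KO mouse 1 and CASP8 IEC-KO Mlkl-/- mouse 5 overlapped. Fas rose with Mlkl loss by 0.58 ± 0.14 (adjusted p = 0.0110), not called without CASP8 IEC-KO mouse 2 (0.47, adjusted p = 0.0756) or with those groups fitted alone (0.0584; from 0.0031 to 0.0756 over its alternatives). Between FADD IEC-KO (6.31 to 7.01) and FADD IEC-KO Mlkl-/- (6.56 to 6.80) the mice overlapped and Fas was not called. The Mlkl effects in these backgrounds differed by -0.51 ± 0.20, and that interaction was not called (adjusted p = 0.604; 0 of 10 members, 1 at an unadjusted p under 0.05, and 0.0564% of all genes called). Without CASP8 IEC-KO mouse 1 Fas was also called as lower in CASP8 IEC-KO than in Casp8 fl/fl (-0.48, adjusted p = 0.0384), as it was with both floxed groups as the control (-0.41, adjusted p = 0.0390). The T and intraepithelial lymphocyte list averaged 7.07 in CASP8 IEC-KO Mlkl-/- (6.90 to 7.24 by mouse) and 6.46 in CASP8 IEC-KO (5.95 to 7.01), with 1 of 12 genes called beside 2.78% of all genes, and the part of this list in the Fas difference was not tested.

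**Figure D3:**
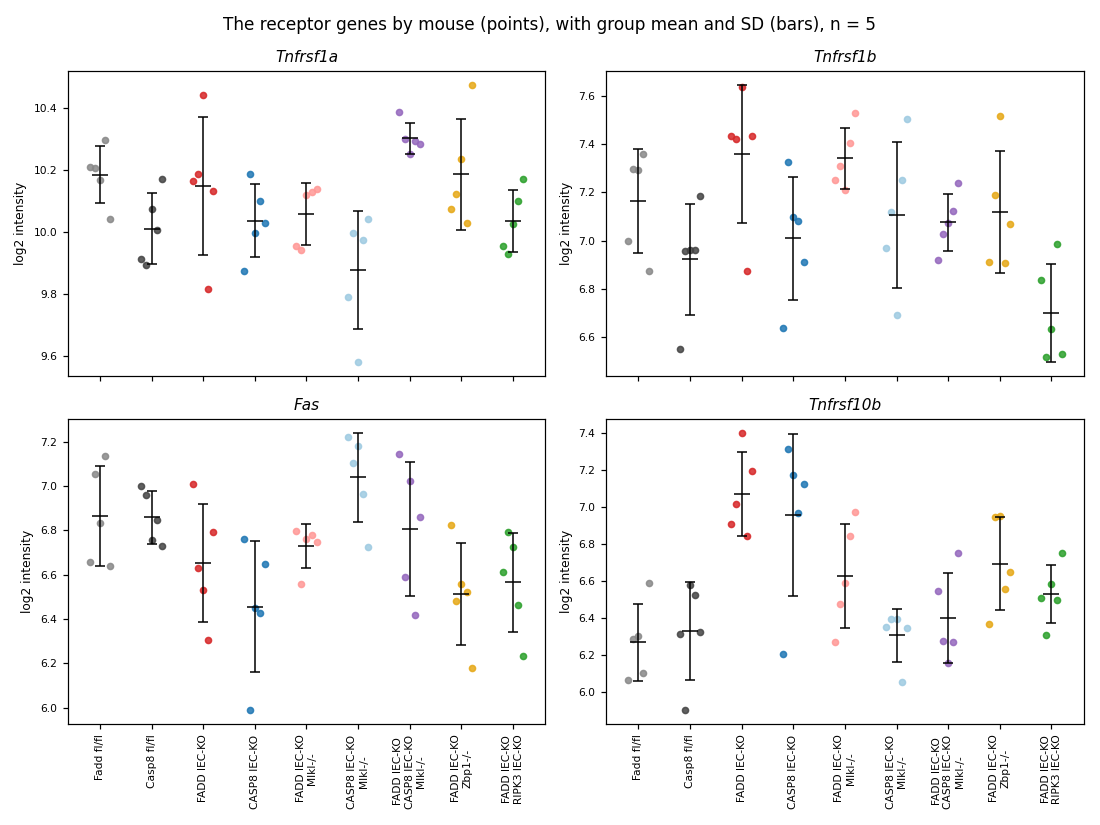
Log2 intensity (y axis) of the 4 receptor genes in each mouse (points) of the 9 genotypes (x axis), with the group mean and SD of 5 mice. Tnfrsf10b is high in FADD IEC-KO and in 4 of 5 CASP8 IEC-KO mice, and Tnfrsf1b is lowest in FADD IEC-KO RIPK3 IEC-KO.

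The adaptor genes Traf2 and Tradd changed by small amounts, and for both the floxed control groups lay apart without being called. Traf2, whose product brings the cIAPs to the receptor, read 6.95, 7.17, 7.03, 6.80 and 6.78 in Fadd fl/fl and 7.35, 7.33, 7.27, 7.45 and 7.47 in Casp8 fl/fl. These controls did not overlap, although the difference of -0.43 ± 0.10 was not called (adjusted p = 0.121; 0 of 10 members, 2 at an unadjusted p under 0.05, and 0.00513% of all genes called between the controls). Tradd, the adaptor of TNFR1, read 8.88, 9.11, 8.89, 9.06 and 8.97 in Fadd fl/fl and 9.21, 9.28, 9.20, 9.17 and 9.19 in Casp8 fl/fl, again apart (-0.23 ± 0.07, adjusted p = 0.259).

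FADD IEC-KO mice read 7.27, 7.21, 7.44, 7.24 and 7.32 for Traf2, above Fadd fl/fl and at the level of Casp8 fl/fl. Traf2 rose over Fadd fl/fl by 0.35 ± 0.10 (adjusted p = 0.0470), and against both floxed groups the difference was 0.13 (adjusted p = 0.395). Tradd read 9.28, 9.16, 9.23, 9.07 and 9.37 in the same mice and rose by 0.24 ± 0.07 (adjusted p = 0.0438), which became 0.13 against both floxed groups (adjusted p = 0.201). Of the leave-outs of a single mouse, both calls were kept only without Fadd fl/fl mouse 2 or FADD IEC-KO mouse 4. Over its alternatives adjusted p ran from 0.0228 to 0.395 for Traf2 and from 0.0176 to 0.238 for Tradd. FADD IEC-KO Mlkl-/- mice read 7.33, 7.61, 7.71, 7.69 and 7.42 for Traf2, clear of Fadd fl/fl (0.61 ± 0.10, adjusted p = 1.35e-04), and this call held with both floxed groups as the control. Triple mutants read 7.65, 7.69, 7.66, 7.47 and 7.88, all above the highest floxed mouse of either kind, the lowest of them by less than the rounding shown, a rise of 0.51 ± 0.09 (adjusted p = 4.24e-04).

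Tradd was highest in FADD IEC-KO Zbp1-/-, at 9.43, 9.38, 9.37, 9.26 and 9.65, and FADD IEC-KO RIPK3 IEC-KO mice read 9.20, 9.36, 9.34, 9.30 and 9.37. Both lay above every Fadd fl/fl mouse, by 0.44 ± 0.07 (adjusted p = 4.24e-05) and 0.33 ± 0.07 (adjusted p = 0.0082). Against both floxed groups the first call held and the second did not (0.22, adjusted p = 0.0678; 0.131 with only the groups compared; from 0.0023 to 0.131 over its alternatives). In FADD IEC-KO Mlkl-/- Tradd was near the level of its control Fadd fl/fl, at 8.89 to 9.12. In CASP8 IEC-KO Mlkl-/- it read 8.99 to 9.13, below every mouse of its control Casp8 fl/fl (9.17 to 9.28), though not called against it. Tradd fell in CASP8 IEC-KO Mlkl-/- relative to CASP8 IEC-KO (9.21 to 9.49) by 0.30 ± 0.07 (adjusted p = 0.0091; 0.108 with those groups fitted alone), with no overlap. FADD IEC-KO Zbp1-/- and FADD IEC-KO RIPK3 IEC-KO exceeded FADD IEC-KO Mlkl-/- by 0.41 ± 0.07 (adjusted p = 3.27e-04; 0.0545 with those groups fitted alone) and 0.30 ± 0.07 (adjusted p = 0.0071), also with no overlap. Traf2 went the other way in these comparisons, at -0.40 ± 0.10 (adjusted p = 0.0188) and -0.39 ± 0.10 (adjusted p = 0.0198). The first Traf2 call was lost with those groups fitted alone (adjusted p = 0.149) and without FADD IEC-KO Mlkl-/- mouse 3 or 4 or Zbp1-/- mouse 5, with adjusted p from 0.0065 to 0.149 over its alternatives. The second was lost with those groups fitted alone (0.0560) and without FADD IEC-KO Mlkl-/- mouse 2, 3 or 4 or RIPK3 IEC-KO mouse 1 or 2, with adjusted p from 0.0057 to 0.0638.

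Birc3 encodes cIAP2, a ligase whose gene is a known target of NF-kB. It read 9.73, 9.69, 9.52, 9.17 and 9.65 in FADD IEC-KO and 9.79, 10.01, 9.89, 9.93 and 9.88 in FADD IEC-KO Mlkl-/-. The groups did not overlap, and Birc3 rose by 0.35 ± 0.09 (1.28-fold, adjusted p = 0.0404). That call was lost with the title number range as a covariate (adjusted p = 0.0508), with those groups fitted alone (0.213), without FADD IEC-KO mouse 3 or 4, and without any of mice 2 to 5 of FADD IEC-KO Mlkl-/-. All 5 FADD IEC-KO Mlkl-/- mice have numbers under 100. Adjusted p ran from 0.0192 to 0.213 over its alternatives, and without FADD IEC-KO mouse 4, the lowest of its group, the difference was 0.26 (adjusted p = 0.190). CASP8 IEC-KO mice read 9.57, 9.24, 9.61, 9.41 and 9.68 and CASP8 IEC-KO Mlkl-/- mice 9.85, 9.81, 10.01, 9.86 and 10.11, again apart, a rise of 0.42 ± 0.09 (adjusted p = 0.0050; 0.0508 with those groups fitted alone). The Mlkl-/- groups with 1 epithelial deletion also exceeded their floxed controls, by 0.30 ± 0.09 without FADD (adjusted p = 0.0332) and 0.37 ± 0.09 without caspase-8 (adjusted p = 0.0349), where Casp8 fl/fl mouse 1, at 9.82, was the 1 control to overlap. The first of these was lost with the title number range as a covariate (adjusted p = 0.0638; 3 of 5 Fadd fl/fl mice have numbers from 200 up) and without Fadd fl/fl mouse 1, 4 or 5 or FADD IEC-KO Mlkl-/- mouse 2, 3, 4 or 5, with adjusted p from 0.0052 to 0.0866 over its alternatives. The other was lost with those groups fitted alone (0.117) and without Casp8 fl/fl mouse 2, 3, 4 or 5 or CASP8 IEC-KO Mlkl-/- mouse 3, 4 or 5, with adjusted p from 0.0052 to 0.134.

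Birc3 lay wholly below its FADD IEC-KO Mlkl-/- values in FADD IEC-KO Zbp1-/- (9.24 to 9.57) and FADD IEC-KO RIPK3 IEC-KO (9.38 to 9.60). The log2 differences were -0.47 ± 0.09 (adjusted p = 0.0026) and -0.42 ± 0.09 (adjusted p = 0.0048), and all alternatives run kept both calls. Triple mutants read 9.62 to 9.99 for Birc3 and overlapped both floxed groups, against which the gene was not called. Birc2, which encodes cIAP1 and lies next to Birc3, was called in 0 of 17 limma comparisons. Its group means ran from 7.67 in Fadd fl/fl to 7.83 in FADD IEC-KO Mlkl-/-, and single mice from 7.29 to 8.11, so the groups overlapped throughout.

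**Figure D4:**
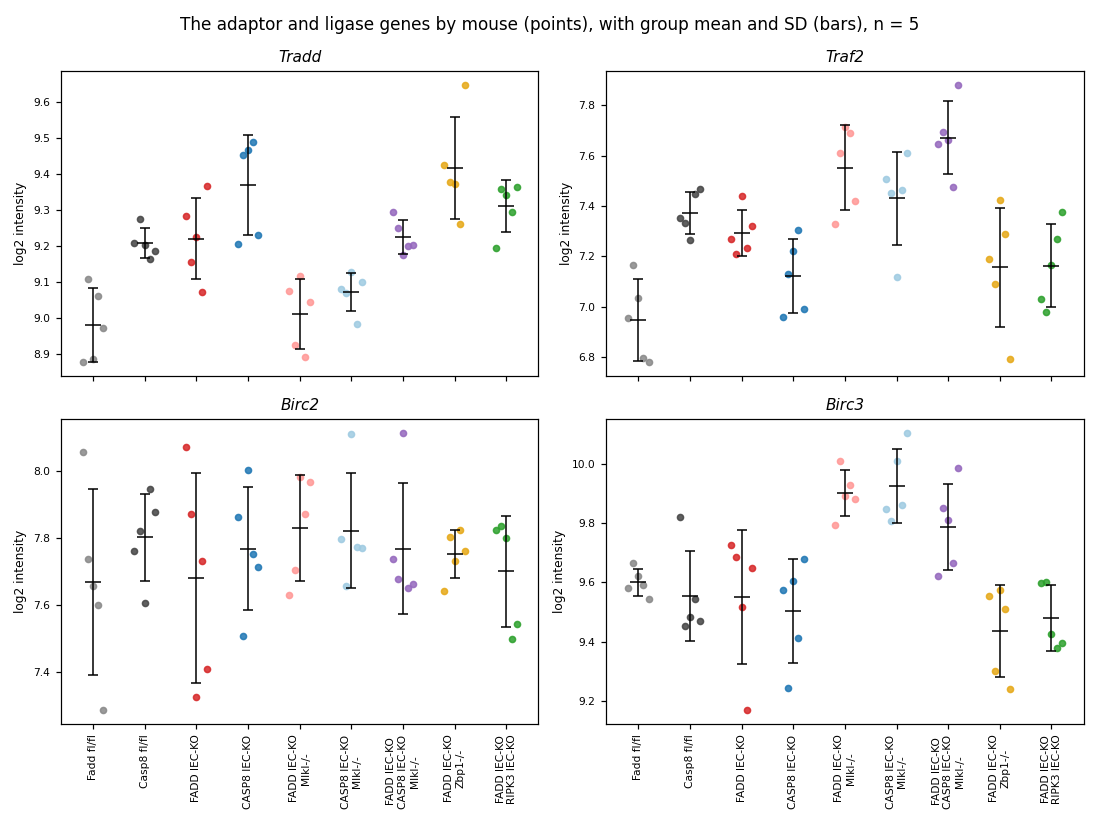
Log2 intensity (y axis) of Tradd, Traf2, Birc2 and Birc3 in each mouse (points) of the 9 genotypes (x axis), with the group mean and SD of 5 mice. The Fadd fl/fl and Casp8 fl/fl mice are apart for Tradd and Traf2, and Birc2 overlaps everywhere. Birc3 has its highest group means in the Mlkl-/- groups, of which the triple mutants overlap both floxed groups.

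The members that rose in the Mlkl-/- groups did so beside type I interferon-induced genes. Of 19 such genes measured, 17 rose in FADD IEC-KO Mlkl-/- over FADD IEC-KO (median log2 difference 1.74) and 19 in CASP8 IEC-KO Mlkl-/- over CASP8 IEC-KO (1.78), where the median over all genes was -0.01 in both. By mouse, the mean of the list was 8.08 to 8.90 in FADD IEC-KO Mlkl-/-, 8.24 to 8.61 in the triple mutants and 8.85 to 9.32 in CASP8 IEC-KO Mlkl-/-. It was 6.43 to 7.57 in FADD IEC-KO and 6.93 to 7.56 in CASP8 IEC-KO, with no overlap with any Mlkl-/- group. FADD IEC-KO Zbp1-/- mice spread from 6.82 to 8.11, and their mouse 1, at 8.11, lay inside the FADD IEC-KO Mlkl-/- range, with mouse 3 just below it at 8.06. In these mice Tnfsf10 read 8.43 and 8.67 and Birc3 9.56 and 9.57, below every FADD IEC-KO Mlkl-/- mouse for both genes. In FADD IEC-KO RIPK3 IEC-KO, 17 of the 19 fell relative to FADD IEC-KO Mlkl-/-, and in FADD IEC-KO Zbp1-/- 8 did. What part these genes had in the Tnfsf10, Birc3 and Fas values was not tested. Tnf was called in FADD IEC-KO against Fadd fl/fl, where 0 of the 19 interferon genes rose and 1 fell by limma (5 at an unadjusted p under 0.05).

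**Figure D5:**
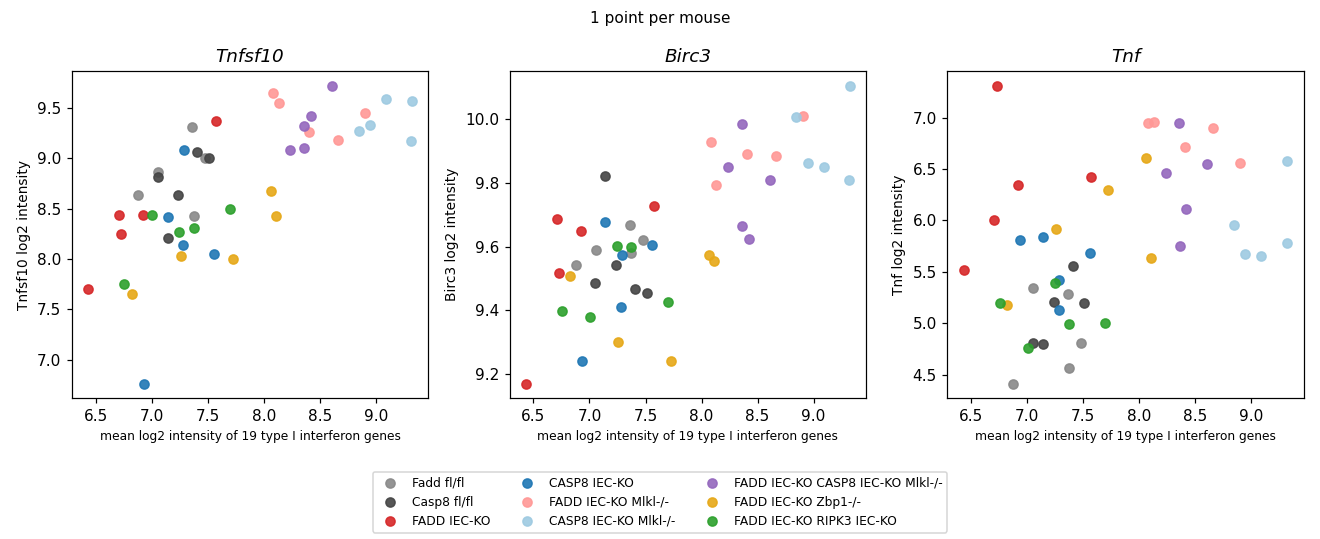
Log2 intensity of Tnfsf10, Birc3 and Tnf (y axes) against the mean log2 intensity of the 19 type I interferon-induced genes (x axes), 1 point per mouse, coloured by genotype. The Mlkl-/- mice lie at the right, from 8.08 up, with high Tnfsf10 and with Birc3 down to 9.62 in the triple mutants. FADD IEC-KO Zbp1-/- mice 1 and 3 reach 8.11 and 8.06 with lower Tnfsf10 and Birc3. The Tnf of FADD IEC-KO mice is high at the left.

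Further comparisons against the floxed controls placed these counts in context. FADD IEC-KO Mlkl-/- raised 3 members over Fadd fl/fl, Tnf, Traf2 and Birc3 (10.5% of all genes called, 4.12% up). CASP8 IEC-KO Mlkl-/- raised 1 over Casp8 fl/fl, Birc3 (1.09% called, 0.775% up). FADD IEC-KO Zbp1-/- raised Tnf and Tradd (11.9% called, 4.78% up) and FADD IEC-KO RIPK3 IEC-KO raised Tradd (1.23% called, 0.564% up). The triple mutants raised Tnf and Traf2 over both floxed groups (3.69% called, 2.15% up). With FADD IEC-KO Mlkl-/- as the reference, FADD IEC-KO Zbp1-/- had 1 member higher and 4 lower (4.12% of all genes called, 1.76% higher and 2.36% lower). In the same comparison FADD IEC-KO RIPK3 IEC-KO had 1 higher and 5 lower (4.96% called, 2.91% higher and 2.04% lower). The triple mutants differed from FADD IEC-KO Mlkl-/- in no member by limma (2 at an unadjusted p under 0.05, 7.86% of all genes called), and FADD IEC-KO RIPK3 IEC-KO from FADD IEC-KO Zbp1-/- in none (2 at an unadjusted p under 0.05, 2.02%). Each smooth muscle marker measured was higher in FADD IEC-KO Zbp1-/- than in FADD IEC-KO Mlkl-/-, without overlap (0.53 to 0.90, adjusted p from 0.0159 to 0.0486). The same held for the triple mutants (0.47 to 1.04, adjusted p from 0.0049 to 0.0418). In FADD IEC-KO RIPK3 IEC-KO these markers were higher by 0.25 to 0.62 and not called. What part muscle had in the members' differences from FADD IEC-KO Mlkl-/- was not tested.

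Few calls were made among the other ligands, while the share of all genes called ran from 0.00513% to 11.9% by comparison. Of 14 other TNF superfamily ligands measured, 1 was called in 1 of the 17 comparisons: Ltb, a lymphotoxin chain and the neighbour of Tnf, was lower in FADD IEC-KO RIPK3 IEC-KO than in FADD IEC-KO Mlkl-/- (-0.43 ± 0.12, adjusted p = 0.0266). Among 23 other receptors of the superfamily, Tnfrsf11b, the decoy receptor osteoprotegerin that binds TRAIL, rose with FADD loss (0.69 ± 0.19, adjusted p = 0.0314) and fell with added Ripk3 loss (-0.81 ± 0.19, adjusted p = 0.0207). Tnfrsf23, a mouse decoy receptor of TRAIL, and Tnfrsf8, or CD30, also fell with added Ripk3 loss (-0.62 ± 0.16, adjusted p = 0.0338, and -0.58 ± 0.14, adjusted p = 0.0205), so 3 of 23 fell and 0 rose there, where 0.723% of all genes fell. Tnfrsf12a, the receptor of TWEAK, rose with caspase-8 loss (0.93 ± 0.22, adjusted p = 0.0106) and fell with added Mlkl loss (-0.93 ± 0.22, adjusted p = 0.0085). In that last comparison Tnfrsf21, death receptor 6, fell as well (-0.76 ± 0.14, adjusted p = 4.57e-04) and Tnfrsf11a, or RANK, rose (0.35 ± 0.08, adjusted p = 0.0088).

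Of 23 other genes of the TNF receptor 1 complex, 0 were called by limma for FADD loss (1 at an unadjusted p under 0.05) and 1 for caspase-8 loss, Spata2, which bridges the deubiquitinase CYLD to the complex (-0.46 ± 0.13, adjusted p = 0.0390). The shares of all genes called were 3.73% for FADD loss and 4.17% for caspase-8 loss. Rnf31, the catalytic subunit of the linear ubiquitin ligase, was the 1 gene called for Mlkl loss without caspase-8 (0.64 ± 0.12, adjusted p = 8.95e-04). Tnfaip3, the ubiquitin-editing inhibitor A20, was lower than in FADD IEC-KO Mlkl-/- both with Zbp1 loss (-0.61 ± 0.14, adjusted p = 0.0069) and with epithelial Ripk3 loss (-0.65 ± 0.14, adjusted p = 0.0030). Of 32 genes known as targets of NF-kB after TNF, a list that shares Tnfaip3, 0 were called by limma for FADD loss (5 at an unadjusted p under 0.05), beside 3.73% of all genes. With Mlkl also lost, 2 rose over FADD IEC-KO, where 0.857% of all genes rose: Nfkb2, a precursor of NF-kB p52 (0.82 ± 0.09, adjusted p = 1.62e-07), and Nfkbia, the inhibitor IkB-alpha (0.50 ± 0.11, adjusted p = 0.0090). In FADD IEC-KO RIPK3 IEC-KO 5 of the 32 were lower than in FADD IEC-KO Mlkl-/-, among them Nfkb2 (-0.96 ± 0.09, adjusted p = 1.29e-08), Nfkbia (-0.89 ± 0.11, adjusted p = 1.50e-06) and the chemokine gene Cxcl10 (-0.83 ± 0.24, adjusted p = 0.0291). In that comparison 2.04% of all genes were lower.

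TNF is released from cells by ADAM17 and its mRNA is held short-lived by AU-binding proteins. Of 9 genes of these steps, 2 fell with FADD loss, where 1.92% of all genes fell: Timp3, an inhibitor of ADAM17 (-0.57 ± 0.13, adjusted p = 0.0067), and Zfp36l1, which marks AU-rich mRNA for decay (-0.38 ± 0.10, adjusted p = 0.0222). Both were also lower in FADD IEC-KO Mlkl-/- than in Fadd fl/fl (-0.66 ± 0.13, adjusted p = 5.08e-04, and -0.58 ± 0.10, adjusted p = 1.45e-04), where 6.35% of all genes fell. What part Timp3 and Zfp36l1 had in the Tnf values was not tested. Rhbdf2, or iRhom2, which carries ADAM17 to the cell surface, rose with added Mlkl loss (0.29 ± 0.08, adjusted p = 0.0367). Downstream, of 17 genes of the death complexes 1 fell with FADD loss, Fadd itself, and with caspase-8 loss Casp8 fell and Ripk3 rose (0.91 ± 0.16, adjusted p = 7.46e-04). Of 16 BCL2 family genes 0 were called by limma for either deletion, with 2 at an unadjusted p under 0.05 in each. Of 16 targets of p53, which share Tnfrsf10b and Fas with the members, 3 rose with caspase-8 loss, where 2.89% of all genes rose: Tnfrsf10b, Plk2 (0.64 ± 0.18, adjusted p = 0.0299) and Perp (0.25 ± 0.07, adjusted p = 0.0198). With FADD loss Tnfrsf10b rose and Trp53inp1 fell (-0.74 ± 0.20, adjusted p = 0.0310).

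For each member the 3 genes with the highest Pearson correlation over the 45 arrays were listed, as a description with no test, since they were picked as the highest of all genes and the arrays share their groups. Those of Tnf were Nox1 (r = 0.86), an epithelial oxidase, Stk39 (0.82) and Acot7 (0.81). Tnfsf10 followed the guanylate-binding protein genes Gbp3 (0.89) and Gbp7 (0.85) and Tapbp (0.87), which loads MHC class I. Birc3 followed the interferon-induced Ifit2 (0.81), Casp1 (0.80) and Nfkbia (0.80), and Fas followed Trim14 (0.76), Apol7b (0.76) and Apol7c (0.74). Tnfrsf10b followed Pgap1 (0.87), S100a16 (0.85) and Mboat1 (0.84), none of which was among those of Tnfsf10. Tnfrsf1b followed the adhesion receptor gene Cd44 (0.79), Snx10 (0.77) and Armc10 (0.76), and Traf2 followed Arpin (0.76), Nfkb2 (0.73) and F11r (0.73). The likest genes of Tnfrsf1a and Tradd reached 0.70 and those of Birc2 0.61.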

How the data were processed

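Total RNA of ileum, frozen on dry ice, from mice kept in a specific-pathogen-free facility was amplified with a WT PLUS kit, biotin-labelled and hybridised, per the labels' protocols. The deposited values were log2 intensities that the authors had already normalized, with Affymetrix Expression Console and Transcriptome Analysis Console named, without versions, per the submitters' processing notes. The summarization and normalization method and the genome build of the probes were not given in the sources used here. Array medians were 6.36 to 6.44 and values ran from 1.36 to 13.41. No further normalization was applied.

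Of 22142 probes, 19527 had 1 gene symbol in the platform annotation, none had several and 2615 had none (11.8%, unnamed here). The probe with the highest mean stood for each of 33 genes with several probes, which left 19494 genes. No arrays were identical. Each array is a separate mouse by its title, and mice were numbered within groups in accession order, which pairs nothing. With 5 arrays per group, their number limits the precision.

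A linear model with 9 group means over all 45 arrays (36 residual degrees of freedom) was fitted in limma 3.58.1 (R 4.3.3, lmFit and eBayes), for 17 comparisons, 2 interactions and a moderated F test. P-values were adjusted over all 19494 genes within each comparison by Benjamini-Hochberg and called under 0.05. The code was tested on simulated data. The alternatives were a fit of the compared groups alone, the title number range as a covariate, quantile normalization, median centring, a filter on dim genes, the mean of a gene's probes, array weights and leaving out each mouse. Both floxed groups as the control, and a fit without both mice whose targeted gene was near control level, were added after seeing the data. Of 270 entries in 9 pathway and 12 marker lists, 249 were measured. The named genes were the members, the targeted genes, for each list at most the 3 called genes of largest difference in a comparison, and the 3 genes most correlated with each member, predicted genes left out. The rule also allowed the gene of highest mean of a list with no call, but such lists are given by their counts. S100a8, a neutrophil marker, was named with them. The members and lists were chosen with earlier results of these data known. Promoter sequences came from RefSeq (GRCm38.p6), which had entries for 8 members. The Tnfrsf10b and Tradd promoters were not analysed here. Figures were drawn with matplotlib 3.10.9 in Python 3.11.15.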

Additional observations from a re-analysis of the deposited data

Results flagged for a closer look

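In 5 of the 90 groups of 5 mice (10 members in 9 genotypes), 1 mouse lay far from the other 4 by Dixon's criterion, which chance meets in about 1 in 20 groups. Tnfrsf1b was low in FADD IEC-KO mouse 4, at 6.87 against 7.42 to 7.64 in the others. Fas was low in FADD IEC-KO Mlkl-/- mouse 2, at 6.56 against 6.75 to 6.80. Tnfrsf10b was low in CASP8 IEC-KO Mlkl-/- mouse 4, at 6.05 against 6.34 to 6.40. Birc2 was high in triple mutant mouse 3, at 8.11 against 7.65 to 7.74. Birc3 was high in Casp8 fl/fl mouse 1, at 9.82 against 9.45 to 9.54. Of the 20 interaction results of the members 0 were called by limma, with 3 at an unadjusted p under 0.05. The interaction of FADD and caspase-8 loss did not call Fadd or Casp8 either, so it cannot show that their effects were alike.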

How the results depend on the processing

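No paired analysis was possible because the titles share no numbers between groups. Of the 35 called member differences, 15 held in every alternative and 21 held whichever 1 mouse was left out. Fitting the compared groups alone lost 18 of 35, the title range 3, quantile normalization 1, array weights 1, median centring and the mean of probes 0, and the filter on dim genes, which removed Tnf, 0 of 28. Without both mice near control level 2 of 14 were lost, and with both floxed controls 3 of 12.

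Counts of called members that moved by over 1.5 times were as follows. With the compared groups alone they were 2 for FADD IEC-KO against Fadd fl/fl and 2 for FADD IEC-KO Zbp1-/- against FADD IEC-KO Mlkl-/-. They were 1 for the triple mutants against FADD IEC-KO Mlkl-/-. They were 0 for CASP8 IEC-KO and CASP8 IEC-KO Mlkl-/- against Casp8 fl/fl, for Mlkl loss in both backgrounds, for Ripk3 loss and for FADD IEC-KO RIPK3 IEC-KO against Fadd fl/fl. With the title range, Mlkl loss without FADD gave 1 and the triple mutants against CASP8 IEC-KO Mlkl-/- 0. Zbp1 loss gave 1 with quantile normalization and 1 with the filter. The filter also gave 2 for CASP8 IEC-KO, 2 for the triple mutants against FADD IEC-KO Mlkl-/-, 2 for FADD IEC-KO RIPK3 IEC-KO against Fadd fl/fl and 1 for the triple mutants against the floxed controls. Array weights gave 2 for the triple mutants against FADD IEC-KO Mlkl-/-, 2 for CASP8 IEC-KO Mlkl-/- and 2 for FADD IEC-KO RIPK3 IEC-KO against their controls. Without both mice near control level, FADD loss gave 2 and caspase-8 loss 3. With both floxed controls these were 2 and 3, CASP8 IEC-KO Mlkl-/- gave 2 and FADD IEC-KO RIPK3 IEC-KO 0, and the Traf2 difference of FADD IEC-KO Zbp1-/-, 0.21 and not called, turned to -0.0043. Smaller moves included the groups alone, which called Tnfsf10 for FADD IEC-KO Mlkl-/- against Fadd fl/fl (adjusted p = 0.0368) and lost Traf2 for FADD IEC-KO RIPK3 IEC-KO against FADD IEC-KO Mlkl-/- (0.0560), and the title range, which lost Birc3 for FADD IEC-KO Mlkl-/- against Fadd fl/fl (0.0638). The cause of these moves was not tested, except that fitting groups alone uses fewer samples and the filter fewer genes.

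Leaving out 1 mouse gave 2 to 4 called members for FADD loss, 0 to 3 for caspase-8 loss, 0 to 2 and 3 to 6 for Mlkl loss without FADD and without caspase-8, and 0 to 3 for Ripk3 loss (0 without FADD IEC-KO mouse 3). Against the controls it gave 2 to 3 for FADD IEC-KO Mlkl-/-, 0 to 1 for CASP8 IEC-KO Mlkl-/- and 2 to 3 for FADD IEC-KO Zbp1-/-. It gave 3 to 5 for FADD IEC-KO Zbp1-/- and 5 to 6 for FADD IEC-KO RIPK3 IEC-KO against FADD IEC-KO Mlkl-/-, 0 to 1 between those groups, and 0 to 1 for the triple mutants against FADD IEC-KO Mlkl-/-. The remaining counts did not move. Of the called differences, 16 had a value in both title number ranges and the others in 1 range only, and all 51 values within a range had the sign of the whole. These values come from the same mice that gave the calls. Their shared sign therefore cannot show that the title range had no part.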
